A study of Caenorhabditis elegans with 6 samples.

Results

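The nuclear-encoded respiratory chain genes are 43 subunit genes of respiratory complexes I to IV, cytochrome c and the ATP synthase of Caenorhabditis elegans. They were taken from a list of gene symbols whose rule uses no measured value, though the list was drawn up with earlier results of these data known, and all 43 were found among the 46778 genes with deposited values. Complex I is represented by 14 genes, complex II by 5, complex III by 6, cytochrome c by 1, complex IV by 7 and ATP synthase by 10. RNA-sequencing was performed on whole worms of the wild-type strain N2, raised from synchronized L1 larvae at 20 °C and collected at the L4 stage. The worms of 3 libraries were fed HT115 bacteria carrying the let-607 RNAi construct, and those of 3 further libraries were fed HT115 bacteria carrying the empty vector L4440 (control RNAi). As the methods describe, the let-607 RNAi culture was diluted with vector bacteria. LET-607 is a transcription factor related to mammalian CREBH, and the comparison asks which mRNAs change when its gene is knocked down by feeding. Nothing in the sources says whether replicates came from separate cultures, so each p-value measures only the spread between these libraries, which may be technical.

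The respiratory chain lies in the inner mitochondrial membrane. Complex I takes electrons from NADH and complex II takes them from succinate, and both pass them through coenzyme Q to complex III, from which cytochrome c carries them to complex IV, where oxygen is reduced. Complexes I, III and IV pump protons out of the matrix, and ATP synthase uses their return to make ATP. Complex II also serves as succinate dehydrogenase of the TCA cycle, pumps no protons and is wholly encoded in the nucleus, whereas the other complexes also contain subunits made from mitochondrial DNA. In C. elegans this set holds some of the best-known longevity genes, since partial loss of isp-1, nuo-6 or several RNAi targets of the chain extends lifespan, whereas loss of gas-1 or mev-1 shortens it.

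The values are FPKM (fragments scaled to transcript length and to the mapped fragments of the library), so levels can be set beside each other between genes. A gene passed the test when its adjusted p was under 0.1, the false discovery rate given in the study's methods, in a limma comparison of log2(FPKM + 0.1) over 15453 genes that averaged 0.5 FPKM or more. Fold changes are log2 differences on that scale, libraries labelled let-607 RNAi minus libraries labelled control RNAi. The FPKM of a library summed to between 1400487 and 1485099, and the steps between low values gave relative depths of 0.969 to 1.06. The targeted gene was checked first. Expression of let-607 in FPKM was 70.96, 76.21 and 77.94 under the let-607 RNAi label, against 69.06, 57.13 and 57.28 under the control RNAi label (log2 fold change 0.30 ± 0.08, SE, adjusted p = 0.0340). Its mRNA was thus higher, not lower, under the label of its own knockdown (0.18 after median-of-ratios scaling, adjusted p = 0.151), and all directions below refer to the labels as given. The study also measured this mRNA by qPCR in worms given the diluted bacteria, which was not analysed here.

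Respiratory chain genes were among the abundant mRNAs of these worms, at mean levels of 66.5 (sdha-2) to 2135 FPKM (cyc-2.1), and most of those that changed were slightly lower in libraries labelled let-607 RNAi. Of the 43 genes, 23 (53.5%) fell, 1 (2.33%) rose and 19 did not pass the test. Over all genes tested, 11.4% fell and 31.7% rose. Among the 3122 genes that averaged 50 FPKM or more, a level that every respiratory chain gene exceeded, 27.5% fell and 30.9% rose. The changes were small: the log2 fold changes ran from −0.35 to 0.19, with a median of −0.09, beside a median of 0.12 over all genes tested and of 0.01 over genes of at least 50 FPKM. None of the 43 (0) passed the test with a log2 fold change beyond 1 in either direction, the pair of thresholds that the methods of the study apply, whereas 5.14% of all genes tested did by limma. Unadjusted, 24 of the 43 (55.8%) had a limma p under 0.05, beside 44.5% of all genes tested and 1873 of the 3122 genes of at least 50 FPKM, a larger share than that of the 43. In bulk samples, fewer cells of a type and less RNA per cell cannot be told apart.

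The number that passed depended on how the libraries were scaled to each other, and the direction of those that fell did not. Median-of-ratios scaling, which centres the ratios of all genes, moved the median of all genes to 0.01. Under it 35 of the 43 fell and 0 rose, with a median of −0.21, beside 19.3% of all genes tested that fell and 18.9% that rose. Of genes of at least 50 FPKM, 45.5% fell under that scaling. Rescaling to TPM, with equal sums in each library, left 18 that fell and 6 that rose, beside 8.89% and 38.1% of all genes. The 18 genes that fell under TPM also fell in the deposited values and after median-of-ratios scaling, and all 23 that fell in the deposited values fell after median-of-ratios scaling. Set against the median of all genes tested, the median of the set differed by −0.21 in the deposited values, in TPM and after median-of-ratios scaling, and by −0.06 after quantile normalization. Set against genes of at least 50 FPKM, the difference was −0.10 in the first 3 scalings and −0.06 after quantile normalization. The first 3 scalings differ only by a factor per library, which moves all genes alike, so their agreement was fixed in advance. Only quantile normalization could differ.

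**Figure D1:**
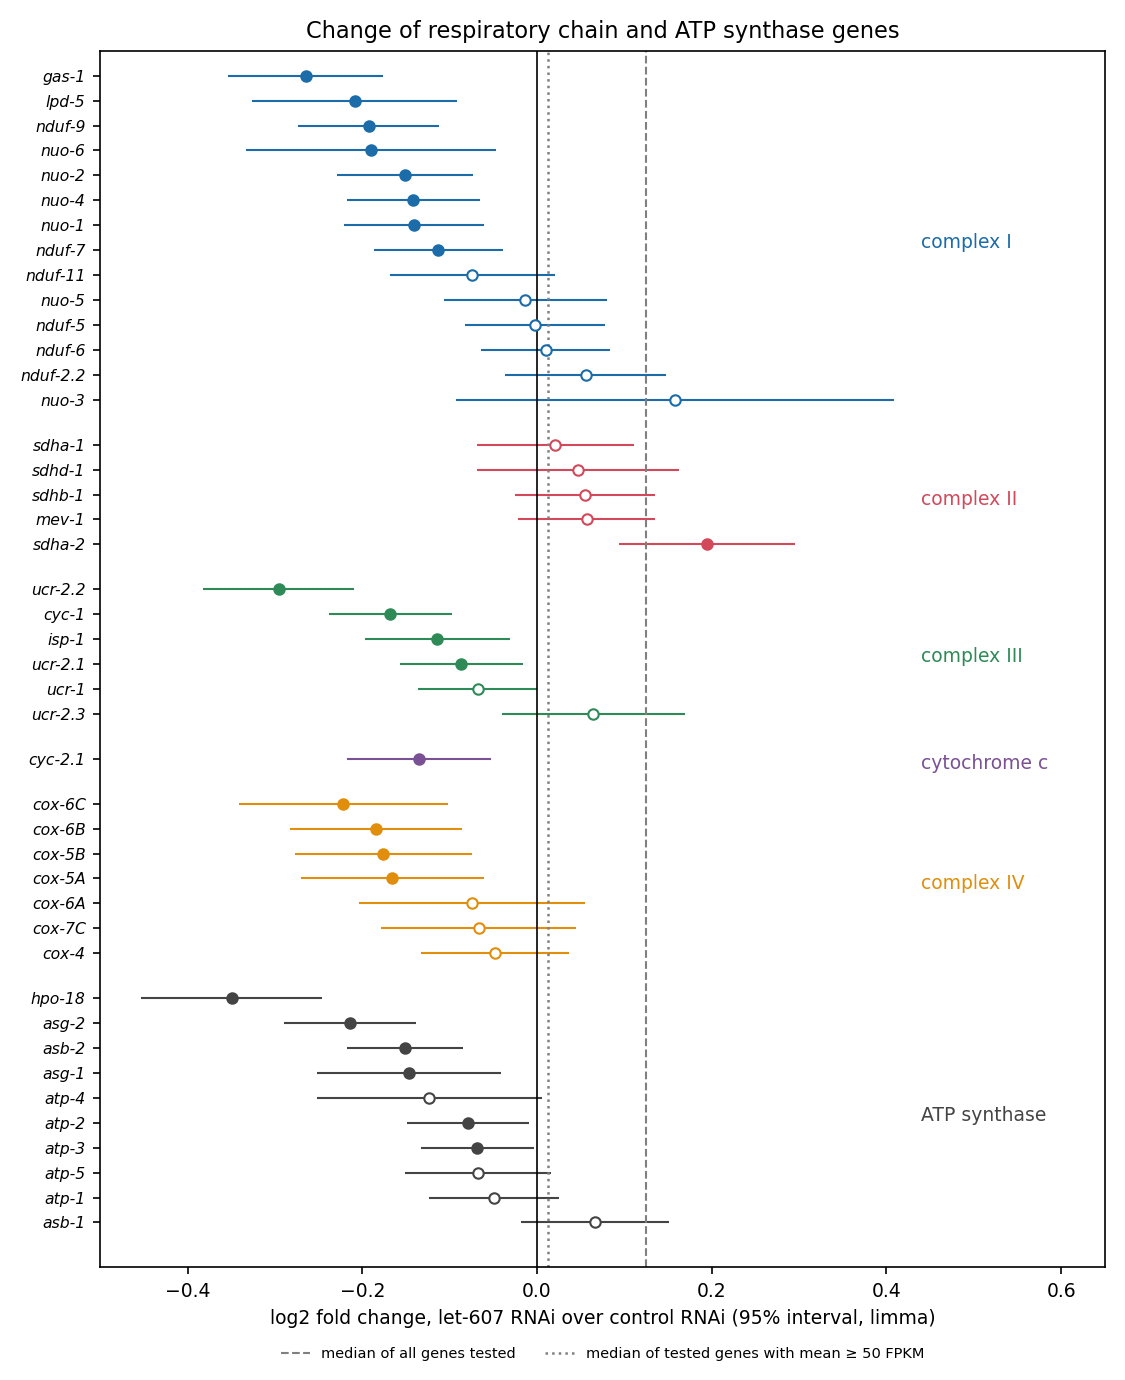
Log2 fold change of each of the 43 genes by complex (horizontal axis: libraries labelled let-607 RNAi minus libraries labelled control RNAi, log2 of FPKM + 0.1; bars: 95% limma intervals; filled points: adjusted p under 0.1). The dashed line marks the median of all genes tested, 0.12, and the dotted line that of genes of at least 50 FPKM, 0.01; 23 filled points lie below 0 and 1, sdha-2, lies above it.

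Seen library by library, the set was lower in each of the 3 libraries labelled let-607 RNAi. Together the 43 genes took 1.81%, 1.79% and 1.86% of the summed FPKM in libraries labelled let-607 RNAi, against 1.89%, 1.92% and 1.91% in libraries labelled control RNAi, so the groups did not overlap. The median log2 ratio of the genes to their control mean was −0.08, −0.12 and −0.08, against −0.02, 0.01 and 0.02. For 26 genes all 3 values under let-607 RNAi lay below all 3 control values, for 4 they lay above, and for 13 the groups overlapped. Over all genes tested, 13.4% were separated downwards and 35.7% upwards, and of genes of at least 50 FPKM 30.7% were separated downwards.

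**Figure D2:**
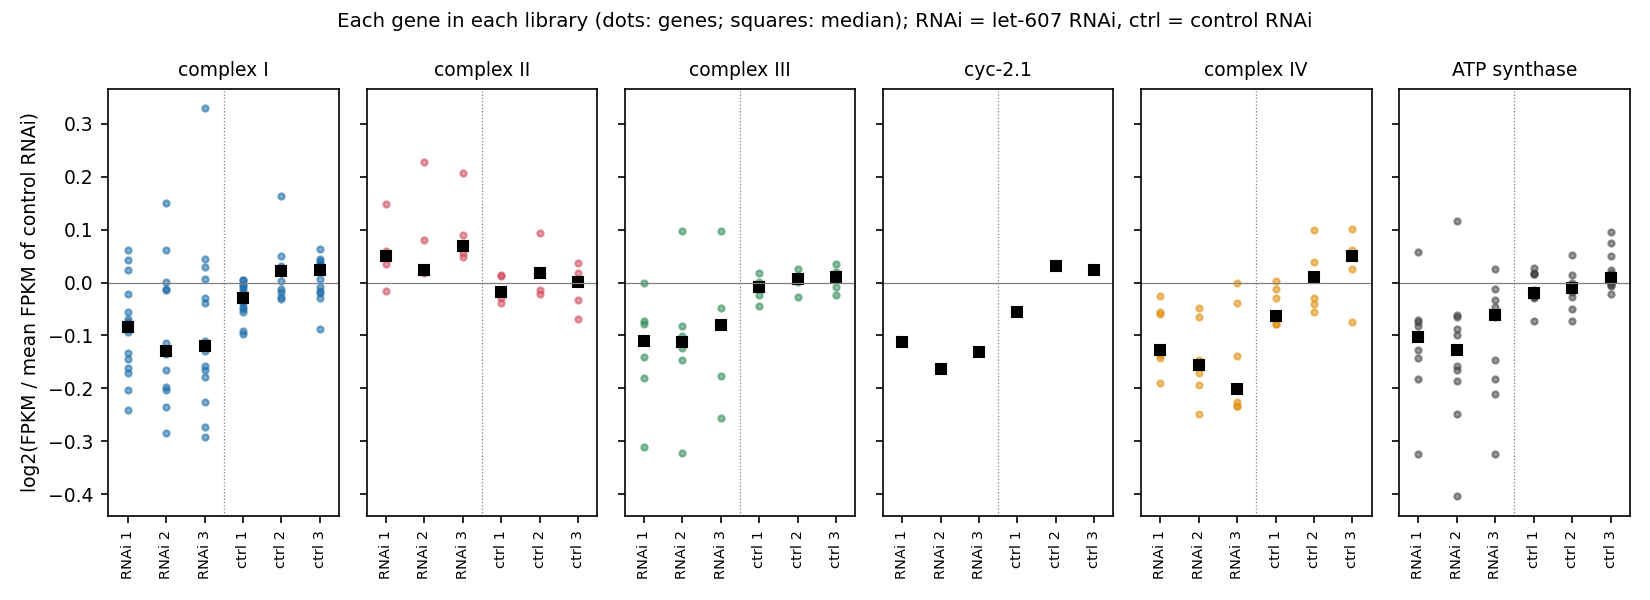
Log2 ratio of each gene in each library to its mean in the libraries labelled control RNAi (vertical axis), by complex, with libraries labelled let-607 RNAi at the left and control RNAi at the right of each panel; dots are genes and squares are the median of the complex in that library. The squares of complexes I, III and IV, cytochrome c and ATP synthase lie below 0 in all 3 libraries labelled let-607 RNAi, whereas those of complex II lie between 0.02 and 0.07.

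Complex I, the NADH dehydrogenase, had 8 of 14 genes that fell and 0 that rose, with a median log2 fold change of −0.13. The largest change was in gas-1 (WBGene00001520, chromosome X, 15586786 to 15590397 on the minus strand of WBcel235), which encodes a subunit of the complex. Its expression was 161, 156 and 157 FPKM in libraries labelled let-607 RNAi, against 185, 197 and 188 FPKM in those labelled control RNAi. The groups did not overlap, and the level under let-607 RNAi was 83.2% of control (log2 fold change −0.26 ± 0.04, SE, adjusted p = 0.00244).

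The paralog nduf-2.2 (WBGene00006463, chromosome III, 6465222 to 6467206, plus strand) encodes the same subunit and did not pass the test. It had 86.8, 86.8 and 85.8 FPKM in libraries labelled let-607 RNAi, against 80.4, 84.2 and 85.0 FPKM in control RNAi (log2 fold change 0.06 ± 0.04, SE, adjusted p = 0.311; −0.07 after median-of-ratios scaling). At the upper end stood nuo-3, which encodes the accessory subunit NDUFA6, with 724, 814 and 922 FPKM against 689, 822 and 691 FPKM in control RNAi. Its groups overlapped widely (log2 fold change 0.16 ± 0.11, SE, adjusted p = 0.293). Of its locus, 1093 bases overlap the protein-coding gene Y57G11C.1147 on the same strand, so its value may hold reads of that gene.

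Core subunits of complex I were found on both sides of the threshold. Among those that fell were nuo-1, the NDUFV1 subunit at which NADH is oxidized (344 ± 4.1 FPKM under let-607 RNAi, 380 ± 10.5 FPKM in control, SD, n = 3 each; log2 fold change −0.14), nuo-2 (NDUFS3; −0.15) and nduf-7 (NDUFS7; −0.11). By contrast nuo-5, the NDUFS1 subunit that carries iron-sulfur clusters, had 171 ± 5.0 FPKM against 173 ± 4.5 FPKM in control (log2 fold change −0.01, adjusted p = 0.820). Of the accessory subunits, lpd-5 (NDUFS4; −0.21), nduf-9 (NDUFA9; −0.19), nuo-6 (NDUFB4; −0.19) and nuo-4 (NDUFA10; −0.14) fell. The values of nduf-11 (−0.07), nduf-5 (−0.0022) and nduf-6 (0.01) did not pass. After median-of-ratios scaling 12 of the 14 fell, the exceptions being nduf-2.2 and nuo-3. Under that scaling 45.5% of genes of at least 50 FPKM fell.

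Complex II, succinate dehydrogenase, was the part of the chain with no gene that fell in the deposited values. Of its 5 genes 1 rose and 4 did not pass, and all 5 log2 fold changes were positive (0.02 to 0.19). Over all genes tested 11.4% fell and 31.7% rose, and 5070 of 15453 log2 fold changes were negative. Among genes of at least 50 FPKM 27.5% fell and 30.9% rose, and 1511 of 3122 were negative. The median of complex II was 0.05, against −0.12 for the 38 genes outside it, of which 23 fell. After median-of-ratios scaling the medians were −0.07 and −0.24, the sign of 4 of the 5 turned and sdha-1 fell. In relation to the median of genes of at least 50 FPKM, all 5 genes of complex II lay above it in the deposited values. TPM and median-of-ratios scaling gave the same, since a factor per library cannot change this order. After quantile normalization 4 of 5 lay above it. In relation to the median of all genes tested, in the deposited values, only sdha-2 lay above (0.07). The other 4 lay below it (−0.10 to −0.07). The difference between complex II and the other complexes was not tested.

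The gene that rose was sdha-2 (chromosome I, 10683270 to 10685587, minus strand), which encodes a flavoprotein subunit, the part that oxidizes succinate. It had 68.7, 72.7 and 71.6 FPKM in libraries labelled let-607 RNAi, against 60.4, 62.9 and 62.9 FPKM in libraries labelled control RNAi, with no overlap (log2 fold change 0.19 ± 0.04, SE, adjusted p = 0.0134). The call was lost after median-of-ratios scaling (0.07, adjusted p = 0.237). Its more abundant paralog sdha-1 had 118, 121 and 124 FPKM, against 120, 121 and 116 FPKM in control RNAi, and the groups overlapped (0.02 ± 0.04, SE, adjusted p = 0.700). The iron-sulfur subunit gene sdhb-1 averaged 270 ± 4.3 FPKM against 260 ± 5.9 FPKM in control (log2 fold change 0.05), and the membrane anchors mev-1 (SDHC) and sdhd-1 (SDHD) had log2 fold changes of 0.06 and 0.05. None of these 3 passed.

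Complex III, the cytochrome bc1 complex, had 4 of 6 genes that fell and a median log2 fold change of −0.10. Both electron-carrying subunits encoded in the nucleus fell: cyc-1, which encodes cytochrome c1, had 447 ± 5.8 FPKM under let-607 RNAi and 502 ± 6.9 FPKM in control (SD, n = 3 each; log2 fold change −0.17, adjusted p = 0.00589), and isp-1, the Rieske iron-sulfur protein, had 489 ± 10.7 FPKM and 530 ± 14.2 FPKM in control (−0.11, adjusted p = 0.0447). The core protein gene ucr-1 had a log2 fold change of −0.07 that did not pass.

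The other core protein is encoded by 3 paralogs, and these spread over the whole range of the complex. The lowest was ucr-2.2 (chromosome X, 15173904 to 15178145, plus strand), with 115.79, 114.89 and 120.33 FPKM in libraries labelled let-607 RNAi, against 145.49, 144.20 and 141.25 FPKM in control RNAi. Its level was 81.5% of control with no overlap (log2 fold change −0.30 ± 0.04, SE, adjusted p = 0.00143). Of the locus, 1450 bases lie opposite the collagen gene col-41, and whether reads were counted by strand is not stated. Next was ucr-2.1, also on X, with 229, 226 and 228 FPKM against 242, 243 and 240 FPKM (−0.09 ± 0.03, SE, adjusted p = 0.0625). Autosomal ucr-2.3 had 97.12, 103.94 and 104.03 FPKM against 96.69, 95.33 and 99.58 FPKM in control, and its groups overlapped (0.06 ± 0.04, SE, adjusted p = 0.299).

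Cytochrome c, the soluble carrier between complexes III and IV, was measured in the set by cyc-2.1 (chromosome IV, 4747895 to 4749012, minus strand), the most abundant of the 43 mRNAs. It had 2068, 1996 and 2041 FPKM in libraries labelled let-607 RNAi, against 2151, 2284 and 2272 FPKM in those labelled control RNAi. The groups did not overlap and the gene fell (log2 fold change −0.14 ± 0.03, SE, adjusted p = 0.0245).

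Complex IV, cytochrome c oxidase, had negative log2 fold changes for all 7 genes in the deposited values, the sign of cox-4 turning in TPM, and its median was −0.17. The nuclear genes encode the subunits that surround the catalytic core, and 4 of them fell. The largest change was in cox-6C (chromosome IV, 126731 to 127640, plus strand), with 1220, 1171 and 1185 FPKM in libraries labelled let-607 RNAi, against 1319, 1363 and 1493 FPKM in control RNAi (log2 fold change −0.22 ± 0.05, SE, adjusted p = 0.0158). The others that fell were cox-6B (−0.18), cox-5B (−0.18) and cox-5A (−0.17). The annotated locus of cox-6B overlaps 14 further protein-coding genes, nduc-2 by 8 bases only. Its longest annotated transcript is 572 bases, and whether its value holds reads of other genes was not tested. At the upper end cox-4 had 693, 699 and 703 FPKM, against 723, 695 and 748 FPKM in control (−0.05 ± 0.04, SE, adjusted p = 0.340), with overlap, and cox-7C (−0.07) and cox-6A (−0.07) did not pass either. After median-of-ratios scaling all 7 fell, beside 45.5% of genes of at least 50 FPKM.

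ATP synthase had 6 of 10 genes that fell, with a median log2 fold change of −0.10. It held the largest change of the whole set, in hpo-18 (chromosome V, 4346089 to 4346425, minus strand), which encodes the epsilon subunit, a small part of the central stalk. Its expression was 1467, 1388 and 1467 FPKM in libraries labelled let-607 RNAi, against 1746, 1905 and 1859 FPKM in libraries labelled control RNAi. The groups were far apart, with a level of 78.4% of control (log2 fold change −0.35 ± 0.04, SE, adjusted p = 0.00149). Its longest annotated transcript, of 290 bases, is the shortest of the set, and the part of transcript length was not tested.

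Genes of the catalytic head and of the stalk that holds it had smaller log2 fold changes. The beta subunit gene atp-2, at which ATP is formed, had 1941 ± 39.7 FPKM against 2051 ± 25.9 FPKM in control (log2 fold change −0.08, adjusted p = 0.0796), and the alpha subunit gene atp-1 had 1713 ± 39.8 FPKM against 1772 ± 31.2 FPKM (−0.05, adjusted p = 0.273). Of the stalk genes, atp-3 (the oligomycin sensitivity-conferring protein) fell by 0.07 on the log2 scale, and atp-4 (−0.12) and atp-5 (−0.07) did not pass.

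The stalk subunit b and the membrane subunit g are each encoded by paralogs. The gene asb-2 (chromosome X, 4469766 to 4471476, plus strand) had 603, 593 and 601 FPKM in libraries labelled let-607 RNAi, against 659, 672 and 665 FPKM in control RNAi, and fell (log2 fold change −0.15 ± 0.03, SE, adjusted p = 0.00700). Its counterpart asb-1, known as the form used in the germline, had 283, 294 and 276 FPKM, against 274, 270 and 271 FPKM in control (0.07 ± 0.04, SE, adjusted p = 0.197). For subunit g, asg-2 on X had 712, 680 and 698 FPKM against 795, 808 and 822 FPKM (−0.21 ± 0.03, SE, adjusted p = 0.00303), and asg-1 had 473, 455 and 448 FPKM against 498, 491 and 535 FPKM (−0.15 ± 0.04, SE, adjusted p = 0.0427). Both genes of subunit g fell.

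**Figure D3:**
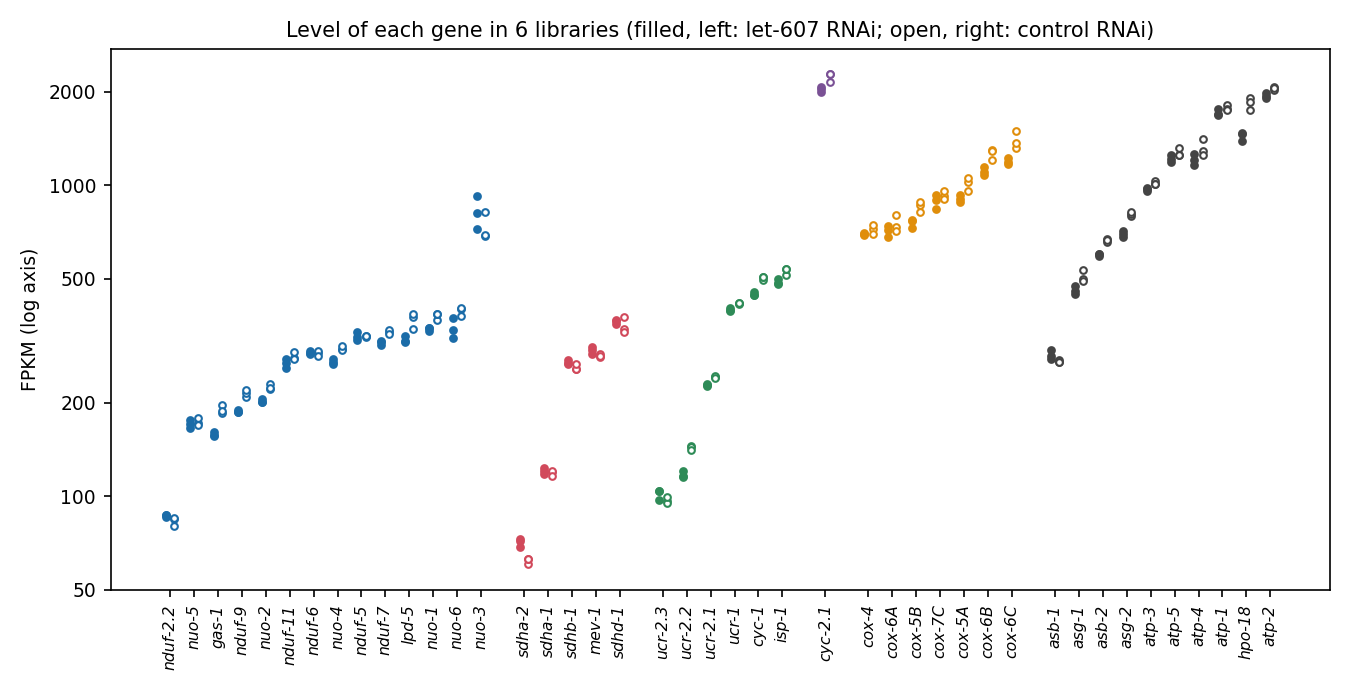
Expression in FPKM (log axis) of the 43 genes in each of the 6 libraries, in order of level within complexes I, II and III, cytochrome c, complex IV and ATP synthase from left to right; filled points are libraries labelled let-607 RNAi and open points to their right are libraries labelled control RNAi. Mean levels run from 66.5 FPKM in sdha-2 to 2135 FPKM in cyc-2.1, and for gas-1, ucr-2.2 and hpo-18 the filled points lie well below the open ones.

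The ratio of paralogs within a library does not depend on how libraries are scaled, and it was compared in 7 pairs. Which gene of a pair stands on top of the ratio is a choice, so the sign has no common meaning across pairs. Of the summed FPKM of nduf-2.2 and gas-1, nduf-2.2 made up 35.1%, 35.7% and 35.3% in libraries labelled let-607 RNAi, against 30.3%, 30.0% and 31.2% in those labelled control RNAi (difference of the log2 ratio 0.32 ± 0.03, SE). For ucr-2.3 beside ucr-2.2 the share was 45.6%, 47.5% and 46.4%, against 39.9%, 39.8% and 41.3% (0.36 ± 0.04). The germline form asb-1 made up 31.9%, 33.2% and 31.5% of subunit b mRNA, against 29.4%, 28.6% and 28.9% in control (0.22 ± 0.04). These are changes of a few percentage points, and reads that match both genes of a pair could have been split between them, which was not tested.

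The remaining pairs gave smaller or similar differences of the log2 ratio. They were 0.17 for sdha-2 to sdha-1, 0.21 for ucr-2.1 to ucr-2.2 and 0.22 for cyc-2.2 to cyc-2.1, where cyc-2.2, the less abundant cytochrome c gene, averaged 264 ± 5.6 FPKM against 249 ± 5.6 FPKM in control (log2 fold change 0.08, adjusted p = 0.111). In these 6 pairs the groups did not overlap and p was 0.1 by exact permutation (two-sided), the lowest value possible with 3 against 3 libraries, or 0.117 adjusted over the 7 pairs, so none can pass. For asg-1 to asg-2 the ratio overlapped between groups (0.07, exact permutation p = 0.2). The pairs are not independent, since ucr-2.2 enters 2 of them, and the second gene lies on X in every pair but cyc-2.2 to cyc-2.1.

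Tissue markers also differed between the same libraries, in which 31.7% of all genes tested rose and 11.4% fell. Of 19 germline markers 12 rose and 1 fell (median log2 fold change 0.26; 9 and 2 after median-of-ratios scaling), and their summed FPKM was 1706 to 1862 in libraries labelled let-607 RNAi, against 1479 to 1591 in control RNAi. Of 14 sperm markers 11 rose and 0 fell (median 0.47; 8 and 0 after median-of-ratios scaling), with sums of 2019 to 2208 against 1251 to 1396 FPKM. The germline marker puf-5, an RNA-binding protein of oocytes, was the single marker past both thresholds (log2 fold change 1.08, adjusted p = 0.000685). Of 12 neuronal markers 4 rose (median 0.14; 2 rose, with a median of 0.02, after median-of-ratios scaling). Their sums were 527 to 542 against 430 to 438 FPKM, of which the synaptic vesicle gene snb-1 alone averaged 230 against 155 FPKM. Body wall muscle markers, from a tissue rich in mitochondria, had 4 of 10 that rose and 2 that fell, and their sums of 7928 to 8058 against 7794 to 8031 FPKM overlapped. After median-of-ratios scaling, 5 of the 10 muscle markers fell and 0 rose (median −0.09). Of 8 intestinal markers 5 fell and 1 rose under it (median −0.13). The respiratory chain genes moved in that direction too. So did genes of at least 50 FPKM, of which 45.5% fell and 18.8% rose (median −0.11). Sums of intestinal (2014 to 2191 against 2054 to 2100 FPKM), epidermal (6666 to 7081 against 6720 to 6952 FPKM) and pharyngeal markers (203 to 226 against 206 to 223 FPKM) overlapped too. In the deposited values 4 of 10 epidermal markers rose and 0 fell (median 0.21; 1 and 1 after median-of-ratios scaling). Of the intestinal markers 2 rose and 2 fell (median −0.01), and of 7 pharyngeal markers 1 rose and 0 fell (median 0.06). No marker was at 0 in any library. The part of these markers in the paralog ratios and in the changes of the set was not tested.

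**Figure D4:**
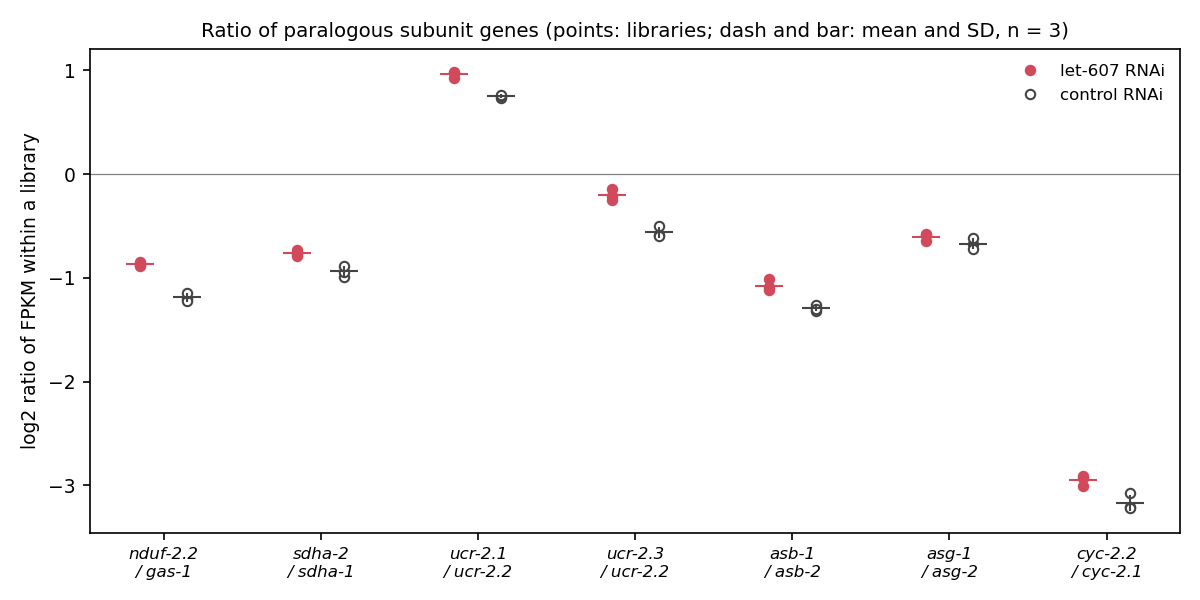
Within-library log2 ratio of each paralog pair (vertical axis) in the libraries labelled let-607 RNAi (left of each pair) and control RNAi (right); filled and open points are libraries, and dashes with bars are means with SD (n = 3). The ratio is higher in all 3 libraries labelled let-607 RNAi than in all 3 controls for every pair but asg-1 to asg-2.

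By chromosome, 14 of the 43 genes lie on I, 4 on II, 11 on III, 4 on IV, 4 on V and 6 on X. Of the 6 on X, which are gas-1, sdha-1, ucr-2.1, ucr-2.2, asb-2 and asg-2, 5 fell (median log2 fold change −0.18). Of the 37 on autosomes 18 fell and 1 rose (median −0.07). Among genes of at least 50 FPKM 34.9% of 332 on X fell, against 26.5% of 2778 on autosomes. This split was made after the values were seen, and it coincides with that between most paralogs above. Across the 43 genes the log2 fold change was lower at higher control levels (Pearson r = −0.39, Spearman rho = −0.31), with the control values entering both measures. It was higher for genes with a longer annotated transcript (Pearson r = 0.28, Spearman rho = 0.23, with log2 of the length). Both are descriptions over genes that share the same libraries.

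Genes outside the list that serve the same machinery were counted in the same way. Of 28 other nuclear-encoded subunits and inhibitors of the chain, 18 fell and 0 rose (median log2 fold change −0.12). The largest change was in ndua-2, the NDUFA2 subunit of complex I, with 324, 339 and 323 FPKM in libraries labelled let-607 RNAi, against 397, 399 and 394 FPKM in control RNAi (−0.27 ± 0.03, SE, adjusted p = 0.00131). The inhibitors of ATP synthase mai-1 (0.24) and mai-2 (−0.10) did not pass. After median-of-ratios scaling 26 of the 28 fell. Of genes of at least 50 FPKM, 27.5% fell in the deposited values and 45.5% under that scaling.

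The 12 protein-coding genes on mitochondrial DNA encode core subunits of the same complexes. The symbols listed for them did not match the names in the annotation, so they were taken by their annotated chromosome, a choice made after the values were seen. Of these 4 (33.3%) fell and 0 rose (median log2 fold change −0.12). In the same values 27.5% of genes of at least 50 FPKM fell, and 11.4% of all genes tested. After median-of-ratios scaling 8 of the 12 fell, beside 45.5% of genes of at least 50 FPKM. The largest log2 fold change by size was in WBGene00010958, to which the tables used here give no symbol, with 23.5, 30.3 and 6.31 FPKM in libraries labelled let-607 RNAi, against 21.7, 30.5 and 21.8 FPKM in control RNAi (−0.56 ± 0.55, SE, adjusted p = 0.476). Its groups overlapped and it did not pass. Further genes were picked from those with a symbol after their values were seen. The annotated COX3, a core subunit of complex IV, had 2161, 2160 and 2015 FPKM in libraries labelled let-607 RNAi, against 2625, 2656 and 2587 FPKM in control RNAi, with no overlap (−0.31 ± 0.04, SE, adjusted p = 0.00120). In contrast ND1 of complex I had 737, 700 and 649 FPKM against 704, 800 and 726 FPKM and overlapped. How evenly the mRNA library kit captures transcripts of mitochondrial DNA was not tested.

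The mitochondrial ribosome, which translates those transcripts, had 42 of 69 protein genes that fell and 1 that rose (median log2 fold change −0.17). The largest log2 fold change by size, 0.37 in mrpl-23, did not pass (adjusted p = 0.118). After median-of-ratios scaling 61 of the 69 fell. Of 13 genes of mitochondrial protein import 4 fell and 2 rose (median −0.10), with the largest change in tomm-7, a small subunit of the outer membrane translocase (374, 367 and 339 FPKM against 480, 443 and 436 FPKM in control; −0.33 ± 0.05, SE, adjusted p = 0.00460). After median-of-ratios scaling 9 of the 13 fell and 0 rose. The share of import genes that fell in the deposited values, 30.8%, was near the 27.5% of genes of at least 50 FPKM. Under median-of-ratios scaling 45.5% of such genes fell.

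Neighbouring pathways held genes that changed in both directions in the deposited values, as did all genes tested (11.4% fell and 31.7% rose). After median-of-ratios scaling 19.3% of all genes tested fell and 18.9% rose. Assembly factors of the complexes had 3 of 18 genes that fell and 2 that rose (median log2 fold change −0.06). The largest change was in coa-7, named for cytochrome c oxidase assembly, with 75.0 ± 20.8 FPKM in libraries labelled let-607 RNAi, against 41.9 ± 7.0 FPKM in control (SD, n = 3 each; 0.81 ± 0.21, SE, adjusted p = 0.0257). Its 3 values under let-607 RNAi were spread from 54.9 to 96.4 FPKM. After median-of-ratios scaling 7 of the 18 fell and 1 rose. Coenzyme Q synthesis had 1 of 8 genes that fell and 3 that rose (median 0.08), coq-4 showing the largest change (0.27), whereas after median-of-ratios scaling 2 fell and 0 rose.

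Among genes of at least 50 FPKM, 27.5% fell in the deposited values and 45.5% after median-of-ratios scaling. Beside these, the TCA cycle and pyruvate dehydrogenase had 6 of 19 genes (31.6%) that fell and 2 that rose (median −0.06). After median-of-ratios scaling 15 of the 19 fell and 1 rose. The largest change was a rise of aco-2, mitochondrial aconitase (428, 451 and 458 FPKM against 371, 381 and 359 FPKM in control; 0.27 ± 0.04, SE, adjusted p = 0.00338). All 4 listed genes of succinyl-CoA ligase, the enzyme that makes the succinate used by complex II, fell: sucl-2 by 0.25, suca-1 by 0.20, sucl-1 by 0.18 and sucg-1 by 0.13 on the log2 scale. They were singled out after their values were seen.

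Adenine nucleotide translocases, which exchange ATP for ADP across the inner membrane, had 1 of 3 that fell (ant-1.1, −0.08) and 1 that rose (ant-1.3, 0.14), a call lost after median-of-ratios scaling (adjusted p = 0.696). Glycolysis, the route to ATP outside mitochondria, had 12 of 19 genes that rose and 1 that fell, with a median log2 fold change of 0.12, close to that of all genes tested. Of all genes tested 31.7% rose and 11.4% fell. After median-of-ratios scaling 6 glycolysis genes rose and 2 fell, beside 18.9% and 19.3% of all genes tested. The largest change was in gpd-1, a glyceraldehyde-3-phosphate dehydrogenase with near-identical copies among which reads may be split (92.4 ± 5.3 FPKM against 57.7 ± 3.6 FPKM in control, SD, n = 3 each; 0.68 ± 0.06, SE, adjusted p = 0.000517).

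**Figure D5:**
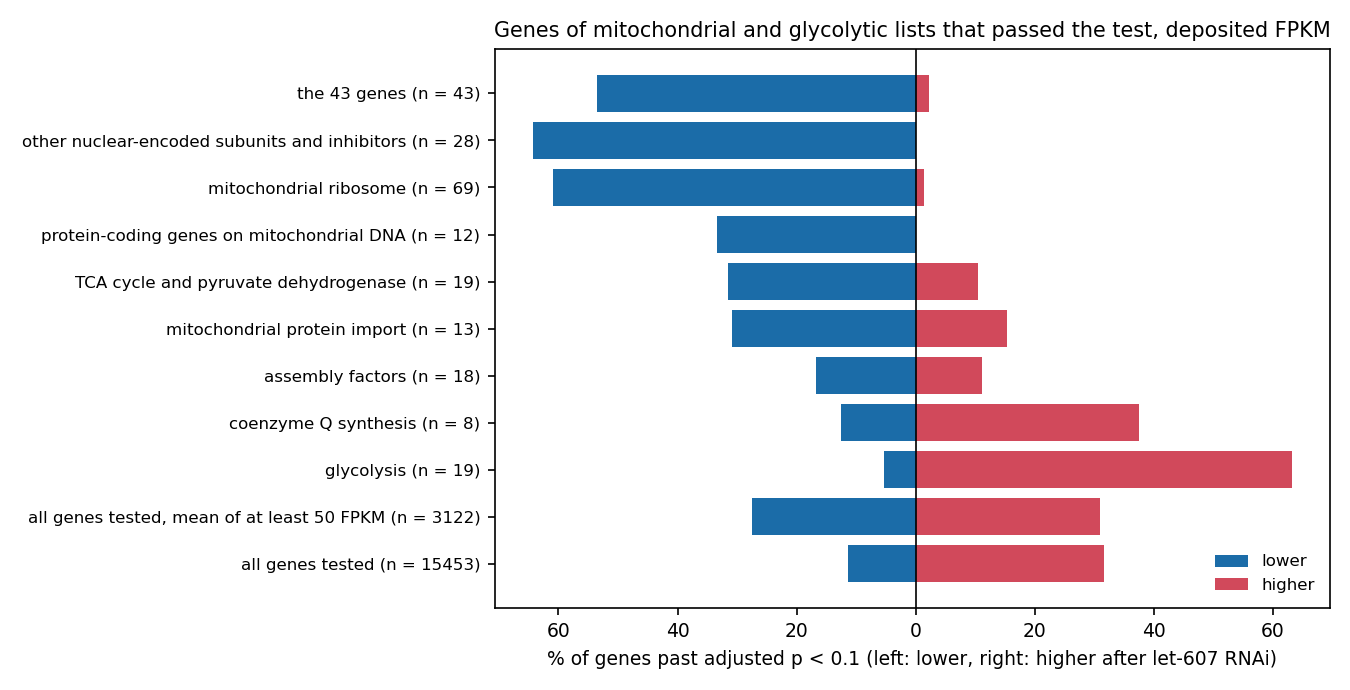
Share of genes of each list that passed the test in the deposited FPKM (horizontal axis, percent; blue to the left: lower, red to the right: higher in libraries labelled let-607 RNAi), with all genes tested and genes of at least 50 FPKM at the bottom. The blue bars reach 53.5% for the 43 genes, 64.3% for the other nuclear-encoded subunits and inhibitors and 60.9% for the mitochondrial ribosome. They reach 11.4% for all genes tested and 27.5% for genes of at least 50 FPKM. The red bar reaches 63.2% for glycolysis, beside 31.7% of all genes tested and 30.9% of genes of at least 50 FPKM.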

How the data were processed

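RNA-sequencing libraries of 3 let-607 RNAi and 3 control RNAi worm samples were grouped by their labels. The authors deposited FPKM for each gene and library, set on WBcel235. The sources differ on the tools: the study's methods name TopHat and Cufflinks, the submitters' processing notes name fastp, HISAT and RSEM, and which of them made these values is not stated. The values hold no counts, so fragment numbers per library are unknown, no counting interval was computed, and precision rests on the spread between 3 libraries. Of 48197 lines, 1 broken line and 1418 repeats were left out, which left 46778 genes; 46603 were found in Ensembl annotation release 115.

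Values were compared as log2(FPKM + 0.1) with limma 3.58.1 in R 4.3.3 (lmFit, eBayes with a mean-variance trend) over 15453 genes that averaged 0.5 FPKM or more, with Benjamini-Hochberg adjustment over all of them. Other steps used Python 3.11.15, pandas 2.3.3, numpy 2.4.6 and scipy 1.17.1. On simulated data with 200 changed genes among 15453 and the rest unchanged, 0% passed at a log2 change of 0.2, 85% at 0.5 and 99% at 1.5. In the real data 1759 genes fell and 4892 rose. The adjustment is less strict when more genes change, so the simulated rates do not carry over to these data. Paralog ratios were compared within libraries by exact permutation. Genes given in full were let-607, the highest and lowest log2 fold change of each complex and the paralogs; of other lists, the gene with the largest absolute change and any past both thresholds. The members and lists were chosen with earlier results of these data known, and no test was run over a list. Alternatives were pseudocounts of 1 and 0.01, no filter, means of at least 5 and 50 FPKM, TPM, median-of-ratios and quantile scaling, a replicate block, other eBayes settings, an adjusted p under 0.05 and leaving out each library.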

Additional observations from a re-analysis of the deposited data

How the results depend on the processing

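Over the alternatives run, the count of the 43 genes past both thresholds stayed at 0, and the number that fell (23) ranged from 16 without a mean-variance trend to 35 after median-of-ratios scaling. The number that rose (1) was 6 in TPM and 0 after median-of-ratios scaling, after quantile normalization and with the replicate block plus median-of-ratios scaling. The median log2 fold change (−0.087) was −0.037 in TPM, −0.209 after median-of-ratios scaling and −0.209 with the block added. Leaving out each library in turn gave 16 to 21 genes that fell, 1 that rose and a median of −0.101 to −0.080; with median-of-ratios scaling, an alternative chosen after seeing the data, it gave 30 to 35, 0 and −0.228 to −0.192 (−0.215, −0.205 and −0.214 without control replicate 1, 2 and 3). Paralog differences without each library ran from 0.305 to 0.344 (nduf-2.2 to gas-1), 0.148 to 0.199 (sdha-2 to sdha-1), 0.198 to 0.227 (ucr-2.1 to ucr-2.2), 0.332 to 0.390 (ucr-2.3 to ucr-2.2), 0.185 to 0.241 (asb-1 to asb-2), 0.0429 to 0.0934 (asg-1 to asg-2) and 0.193 to 0.264 (cyc-2.2 to cyc-2.1). A replicate block gave 21 that fell and 1 that rose, and 33 and 0 with median-of-ratios scaling. No pairing by replicate number was seen. Deviations of libraries with the same number correlated at −0.058 to 0.0028, and 0 of 3 let-607 RNAi libraries correlated best with their own number. With so few libraries this cannot exclude a pairing. Signs of genes that did not pass turned as follows, and the cause was not tested. After median-of-ratios scaling, with and without the block, the log2 fold changes were −0.066 (nduf-2.2), −0.112 (nduf-6), −0.101 (sdha-1), −0.067 (sdhb-1), −0.065 (mev-1), −0.075 (sdhd-1), −0.057 (ucr-2.3) and −0.056 (asb-1). Without the block, nduf-6 (limma adjusted p = 0.0459) and sdha-1 (limma adjusted p = 0.0949) then passed. In TPM the log2 fold changes that turned were 0.036 (nuo-5), 0.047 (nduf-5), 0.0013 (cox-4) and 0.00064 (atp-1). After quantile normalization they were −0.022 (nduf-2.2), −0.019 (nduf-6), −0.024 (sdha-1), −0.0016 (ucr-2.3), 0.043 (atp-1) and 0.036 (atp-5). Leaving out each library in turn gave −0.035 to 0.0074 for nuo-5 (0.0073 without control replicate 3), −0.025 to 0.016 for nduf-5 and −0.0044 to 0.021 for nduf-6. The unknown fragment numbers set no floor here, and changes of a few percent rest on 3 libraries a group.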
